A study of Drosophila melanogaster with 6 samples.

Results

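The genes described here encode protein subunits of oxidative phosphorylation, the mitochondrial machinery that passes electrons from NADH and succinate to oxygen and makes ATP. They were chosen by name, as current gene symbols starting with ND- (complex I), Sdh (complex II), UQCR- (complex III), COX followed by a number (complex IV) or ATPsyn (complex V), with RFeSP and Cyt-c1 added to complex III and levy and cype to complex IV. Of 11982 genes with a probe set of 1 symbol, 76 were members: 32 of complex I, 7 of complex II, 8 of complex III, 16 of complex IV and 13 of complex V. Where a gene had several probe sets, the 1 with the highest mean over the 6 arrays was used. The genes ND-49, ND-30, ND-24, ND-23, SdhA, UQCR-C1, UQCR-C2, Cyt-c-p and Cyt-c-d are not analysed here.

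Total RNA was taken from S2 cells, an embryo-derived fly cell line that shares traits with blood cells. There were 3 control arrays of wild type cells and 3 ROW RNAi arrays of cells soaked for 96 h with double-stranded RNA targeting ROW, a zinc finger protein of chromatin. Whether control cells received any double-stranded RNA is not stated, so an effect of losing ROW and an effect of the soaking cannot be told apart. Nor is it stated that the arrays represent separate cultures, so each p-value reflects array-to-array spread that could be technical. The row transcript checked the depletion: its brightest probe set read 10.44, 10.60 and 10.54 in control against 9.04, 8.91 and 8.91 in ROW RNAi, leaving 33.5% of the control level (limma adjusted p = 0.0023), and its other 2 probe sets left 16.4% and 15.9%. All 8 hemocyte markers were above background on all 6 arrays, and of these Sr-CI was higher by 0.62 and He lower by 0.69 on the log2 scale (limma adjusted p = 0.022 and 0.0100).

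Complex I takes electrons from NADH and complex II from succinate. Both hand them to ubiquinone, complex III passes them on to cytochrome c, and complex IV gives them to oxygen. Complexes I, III and IV pump protons, and complex V, the ATP synthase, uses the proton gradient to make ATP. Each complex other than complex II also holds subunits encoded in mitochondrial DNA, so the nuclear transcripts measured here stand for only part of each complex. In flies many nuclear subunit genes have a duplicate, often marked by an L at the end of its symbol, and many of these duplicates are known for expression in the testis. Of the 76 members, 54 were subunits without that mark, 21 were such second copies, and 1, Sdhaf3, encodes an assembly factor of complex II.

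No member passed the test after ROW depletion. By limma with Benjamini-Hochberg adjustment over all 18769 tested probe sets, 0 of 76 members passed an adjusted p of 0.05, against 1.16% of all tested probe sets (0.405% higher and 0.757% lower in ROW RNAi). The lowest adjusted p among the members was 0.11. At an unadjusted p under 0.05 there were 5 members, all of them second copies, and 0 of the 54 subunits, against 13.8% of all tested probe sets. The median log2 fold change was 0.027 over the 76 members, 0.037 over the 54 subunits and −0.015 over the 21 second copies, and it was −0.028 over all tested probe sets. The sign for the second copies turned to 0.0080 over the 11 above background on all 3 arrays of a group, and to 0.046 over all 21 with cyclic loess scaling. Above 0 lay 52 of the 76 members and 42 of the 54 subunits, against 41.7% of all tested probe sets. Control and ROW RNAi arrays were fully separated in 7 of 76 members, against 21.4% of all tested probe sets. Of the 7, 3 were higher and 4 lower in ROW RNAi, where all tested probe sets gave 7.0% and 14.4%. SdhC and ND-MNLL were subunits and the other 5 were second copies. In these bulk samples fewer cells and less RNA per cell cannot be told apart, and quantile normalization leaves no view of a shift shared by most transcripts.

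The intervals of the subunits were narrow. Above background on at least 1 array of each group were 53 of the 54 subunits. Of these, 52 had a 95% interval lying wholly within a 1.5-fold change either way (98.1%), against 80.3% of all tested probe sets so detected. This comparison was not matched for level. The 54 subunits averaged 11.55 to 11.69 per array, against 6.28 to 6.30 over all tested probe sets. The exception was UQCR-11, a small accessory subunit of complex III, at 0.17 on the log2 scale (95% interval −0.35 to 0.70). Their standard errors ran from 0.042 to 0.21 with a median of 0.058, and those of the 12 second copies so detected from 0.051 to 0.50 with a median of 0.15. Isothermal amplification and RMA can both shrink fold changes, so these intervals bound differences in RMA values.

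**Figure D1:**
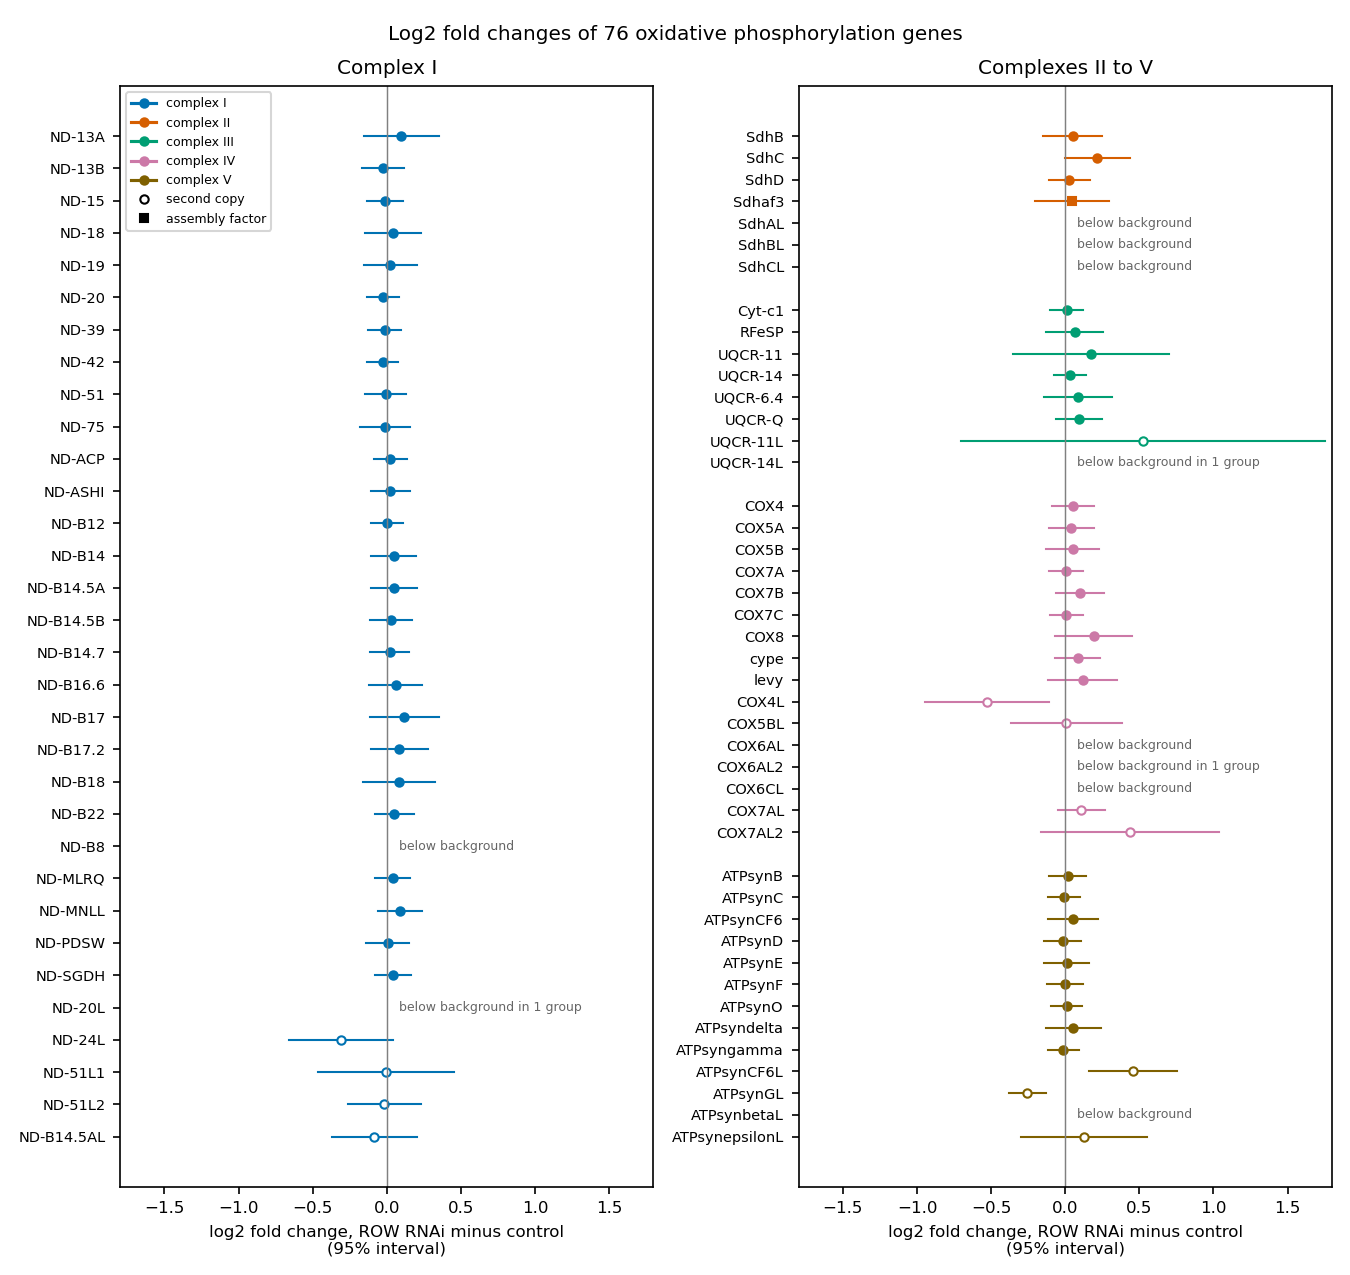
Log2 fold change (ROW RNAi minus control, x axis) of each of the 76 genes with its limma 95% interval, by complex; filled circles are subunits, open circles second copies, the square an assembly factor, and genes not above background in 1 or both groups carry that note in place of a value. The filled circles of all 5 complexes lie near 0, the highest being SdhC at 0.21, while the open circles spread more widely.

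Complex I was represented by 27 subunits and 5 second copies. Of the subunits, 0 passed, the median log2 fold change was 0.025, and 18 lay above 0. The catalytic core was represented by 3 of its 7 nuclear-encoded subunits. ND-51, which binds NADH and the flavin, read 11.32, 11.29 and 11.40 on control arrays and 11.33, 11.38 and 11.26 on the ROW RNAi arrays (log2 fold change −0.0076, SE 0.057, limma adjusted p = 0.96). ND-75, the iron-sulfur subunit next in the electron path, read 9.95, 9.99 and 9.83 against 9.87, 9.86 and 9.99 (−0.010, SE 0.067). ND-20, which carries the last iron-sulfur cluster before ubiquinone, read 11.67, 11.66 and 11.62 against 11.60, 11.63 and 11.64 (−0.026, SE 0.044). In each of the 3 core genes the groups overlapped and the difference was smaller than its error.

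The accessory subunits of complex I surround the core and serve its assembly and stability. The highest log2 fold change among them was that of ND-B17, at 0.12 (SE 0.095, limma adjusted p = 0.59), with 11.55, 11.51 and 11.44 on control arrays and 11.55, 11.50 and 11.81 in ROW RNAi. Only ROW RNAi replicate 3 stood above the controls by more than their own range, and another probe set of the gene gave 0.11. ND-MNLL was fully separated between the groups by a gap under the rounding, with 12.02, 12.02 and 11.96 against 12.02, 12.06 and 12.18 (0.088, SE 0.059, adjusted p = 0.54). ND-ACP, the mitochondrial acyl carrier protein, gave 0.024, −0.021 and −0.036 on its 3 probe sets. The probe set of ND-B8 was not above background on any array (2.22 to 2.82, with a background level of 3.39), so it gave no fold. The other 26 subunits were above background on all 6 arrays.

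Complex II, which is also an enzyme of the tricarboxylic acid cycle, had 3 measured subunits. SdhC, a membrane anchor, had the highest log2 fold change of all 54 subunits. It read 10.20, 10.22 and 10.03 on control arrays and 10.25, 10.34 and 10.50 in ROW RNAi, a difference of 0.21 (SE 0.089, 95% interval −0.0044 to 0.43, limma adjusted p = 0.37), or 116% of the control level. All 3 ROW RNAi arrays lay above all 3 controls, and the gap between the groups was smaller than the spread within either. Its partner anchor SdhD read 11.63, 11.62 and 11.62 against 11.59, 11.62 and 11.74 (0.028, SE 0.057). The iron-sulfur subunit SdhB read 11.31, 11.32 and 11.13 against 11.25, 11.24 and 11.42 (0.049, SE 0.081). In both the groups overlapped, and Sdhaf3, the assembly factor, stood at 0.047 (SE 0.10).

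Complex III was represented by 6 subunits, of which 0 passed, 6 lay above 0 and the median was 0.075. Cyt-c1, which carries the heme that passes electrons to cytochrome c, read 12.50, 12.47 and 12.47 on control arrays and 12.50, 12.45 and 12.51 in ROW RNAi (log2 fold change 0.0084, SE 0.045, limma adjusted p = 0.94). RFeSP, the Rieske iron-sulfur protein, read 11.30, 11.25 and 11.19 against 11.25, 11.23 and 11.45 (0.065, SE 0.078). Another, dim probe set of RFeSP gave −0.40 (SE 0.20, adjusted p = 0.43) and was above background on 5 arrays. UQCR-11 varied most among the subunits, with 8.10, 8.11 and 8.12 on control arrays and 8.69, 7.83 and 8.33 in ROW RNAi. Its control arrays lay close together and its ROW RNAi arrays lay on both sides of them.

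Complex IV was represented by 9 subunits, of which 0 passed, 9 lay above 0 and the median was 0.052. All nuclear subunits of this complex are accessory to the catalytic ones, which mitochondrial DNA encodes. COX4 read 12.34, 12.26 and 12.27 on control arrays and 12.31, 12.29 and 12.42 in ROW RNAi (log2 fold change 0.052, SE 0.057), and COX5A stood at 0.041 (SE 0.061). The fly genes levy and cype encode further small subunits, of the COX6A and COX6C type. They stood at 0.12 (SE 0.094, limma adjusted p = 0.59) and 0.083 (SE 0.060, adjusted p = 0.57). COX8 had the highest log2 fold change among the subunits of complex IV and was named after its values were seen. It read 11.21, 11.07 and 11.07 against 11.18, 11.23 and 11.52 (0.19, SE 0.11, limma adjusted p = 0.47). In COX4, COX5A, levy, cype and COX8 the groups overlapped. Dim further probe sets of COX7B and COX7C gave −0.29 (SE 0.19) and −0.21 (SE 0.21), while the ones used gave 0.10 and 0.0061.

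Complex V was represented by 9 subunits, with 0 past the threshold, a median of 0.0087 and a range from −0.016 to 0.055, the narrowest of the 5 complexes. ATPsynC, the subunit of the membrane rotor ring, read 12.76, 12.76 and 12.79 on control arrays and 12.76, 12.78 and 12.73 in ROW RNAi (log2 fold change −0.011, SE 0.044, limma adjusted p = 0.93). ATPsyngamma, the central stalk, gave −0.012 (SE 0.042), and 0.021 on another probe set. The peripheral stalk genes ATPsynB and ATPsynO gave 0.015 (SE 0.050) and 0.0093 (SE 0.043). The 95% interval of ATPsynO ran from −0.096 to 0.11.

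Within the ROW RNAi group most subunits were high on the same array. ROW RNAi replicate 3 was the highest of the 6 arrays for 44 of the 54 subunits (81.5%), against 14.2% of all tested probe sets. Relative to each gene's control mean, the median subunit stood at 0.033, −0.0051 and −0.028 on the control arrays. It stood at −0.0021, −0.0048 and 0.11 on ROW RNAi replicates 1, 2 and 3. Without ROW RNAi replicate 3 the median log2 fold change of the subunits was −0.0049, with 21 of 54 above 0, against 0.037 and 42 of 54 with it. Without that array the subunit median was −0.0086 in complex I (9 of 27 above 0), −0.0084 in complex II (1 of 3) and −0.0100 in complex V (1 of 9). It was 0.011 in complex III (4 of 6) and 0.012 in complex IV (6 of 9). The sign of the median over all 54 also turned with median centring of the arrays (−0.010, with 23 above 0), which moved the median of all tested probe sets to −0.074. Among the controls, replicate 1 held 45 of the 54 subunits above their control mean, against 43.0% of all tested probe sets.

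**Figure D2:**
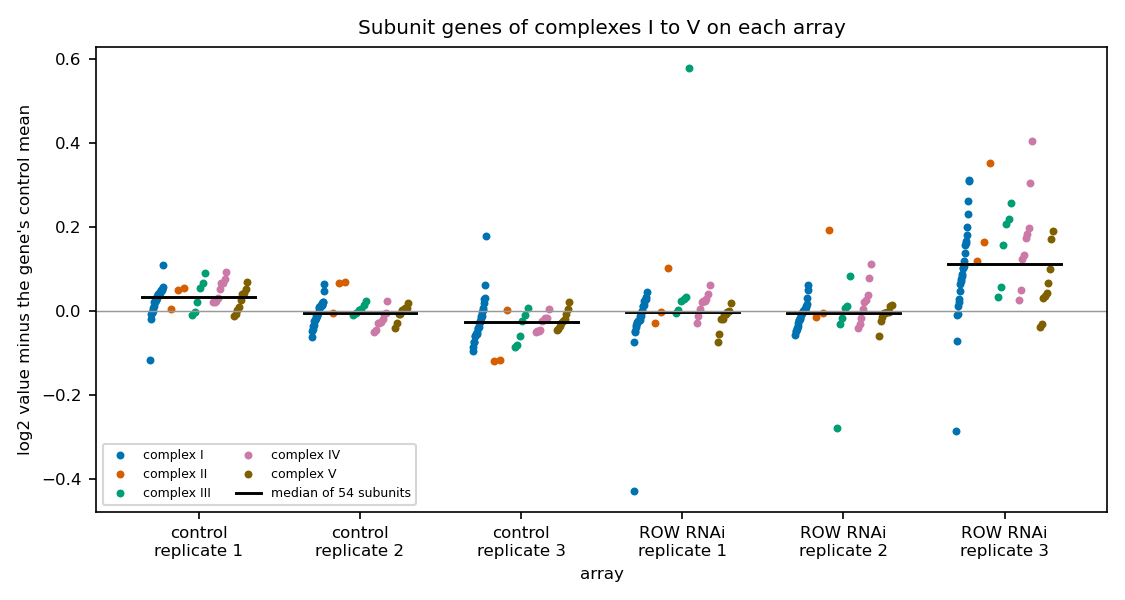
Log2 value of each of the 54 subunits minus that gene's control mean (y axis) on each array (x axis), coloured by complex, with the median over the subunits as a black line. The medians of the first 5 arrays lie between −0.028 and 0.033, and that of ROW RNAi replicate 3 at 0.11.

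The excess of ROW RNAi replicate 3 over the mean of ROW RNAi replicates 1 and 2 was uneven among the subunits. Its median was 0.12 on the log2 scale, with a range from −0.096 to 0.32. The accessory subunits COX8 (0.32), ND-13A (0.32), ND-B17 (0.29), levy (0.28) and ND-B18 (0.27) had the highest excess, and ND-13A and ND-B18 were named after their values were seen. This array was the highest for all 9 subunits of complex IV and all 3 of complex II. It was the highest for 20 of 27 in complex I, 5 of 6 in complex III and 7 of 9 in complex V. The 10 subunits for which it was not the highest were ND-13B, ND-15, ND-20, ND-39, ND-42, ND-51, ND-B8, UQCR-11, ATPsynC and ATPsyngamma. They included 2 of the 3 measured core subunits of complex I and both the rotor ring and the central stalk of the ATP synthase. The remaining core subunit, ND-75, and the peripheral stalk genes ATPsynB and ATPsynO were highest on that array.

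In neighbouring pathways that array was the highest for fewer genes, a difference given as counts without a test. ROW RNAi replicate 3 was the highest array for 0 of 14 measured genes of the tricarboxylic acid cycle, 0 of 5 of pyruvate entry, 1 of 11 of glycolysis, 0 of 11 carriers and porin, and 4 of 18 of mitochondrial import. It was the highest for 5 of 14 assembly factors and for 2 of 4 nuclear OXPHOS genes that the naming rule left out. On the first principal component of all tested probe sets (66.9% of the variance between arrays), the ROW RNAi arrays scored 42.7, −19.5 and 20.8 in replicate order and the controls −3.69, −26.5 and −13.7. ROW RNAi replicate 3, with the high subunits, was thus not the extreme array on that component, and the part of the component in the subunit values was not tested.

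**Figure D3:**
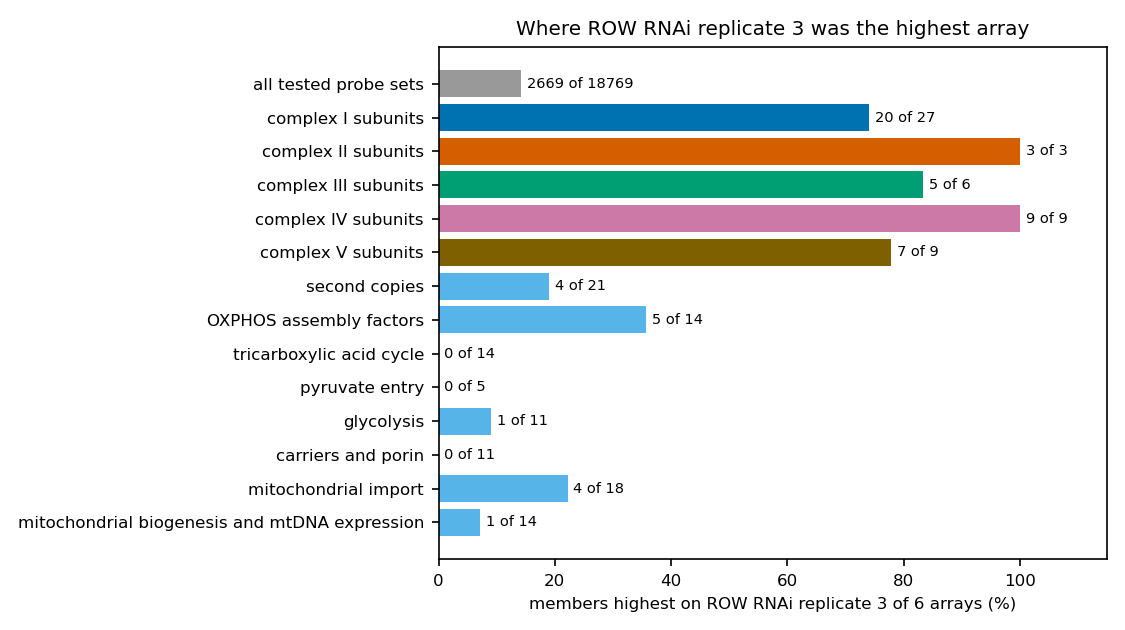
Share of each gene group for which ROW RNAi replicate 3 was the highest of the 6 arrays (bars from 0, in percent, with counts beside them). The subunit groups reach 74.1% to 100.0%, all tested probe sets 14.2% and the lists of neighbouring pathways 0.0% to 35.7%.

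The second copies were dim. Of the 21, 9 were above background on all 6 arrays and 6 on none, the latter being SdhAL, SdhBL, SdhCL, COX6AL, COX6CL and ATPsynbetaL. The rest were above it on some arrays: ND-20L on 2, ND-24L on 3, ND-51L1 on 5, ND-B14.5AL on 4, UQCR-14L on 1 and COX6AL2 on 1. COX7AL, ATPsynepsilonL and COX5BL lay clearest of background, with ranges over the 6 arrays of 7.58 to 7.82, 6.48 to 7.15 and 5.59 to 6.13. Their log2 fold changes were 0.11 (SE 0.064), 0.13 (SE 0.17) and 0.0080 (SE 0.15), and their groups overlapped.

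The 5 second copies with an unadjusted p under 0.05 did not pass after adjustment. ATPsynGL read 3.84, 3.94 and 3.84 on control arrays and 3.63, 3.63 and 3.59 in ROW RNAi, a difference of −0.26 (SE 0.051, limma adjusted p = 0.11). COX4L read 4.29, 4.89 and 4.49 against 4.03, 4.17 and 3.88 (−0.53, SE 0.17, adjusted p = 0.27). In both genes every ROW RNAi array lay below every control. ATPsynCF6L lay the other way, with 3.77, 3.80 and 3.68 against 4.08, 4.08 and 4.47 (0.46, SE 0.12, adjusted p = 0.20). All 3 of these genes were close to the background level. ND-20L read 3.38, 3.44 and 3.41 in control and was not above background in ROW RNAi (2.96, 3.31 and 2.84), at least 1.01-fold lower when ROW RNAi is set at the background level. SdhBL was below background in both groups and gave no fold.

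COX7AL2 read 3.94, 4.55 and 4.81 on control arrays and 4.87, 4.66 and 5.09 in ROW RNAi (log2 fold change 0.44, SE 0.24, limma adjusted p = 0.48), and the groups overlapped. Both second copies of complex III were highest on ROW RNAi replicate 1. UQCR-11L read 4.53, 3.74 and 3.79 against 5.56, 3.75 and 4.33, while UQCR-14L was above background on ROW RNAi replicate 1 alone, at 3.96. The germline and testis markers were mixed on that array. The 7 measured averaged 4.77, 4.54 and 4.60 on control arrays and 5.38, 4.60 and 5.06 in ROW RNAi, with 2 above background on all 6 arrays, 2 on none, and 0 past the threshold. On ROW RNAi replicate 1, vas (6.50), can (4.66) and dj (4.23) were at their highest, while topi (7.13) and Mst87F (1.97, below background) were at their lowest. There bam read 10.35, within its control range, and aly 2.81, below background. Their part in the values of the second copies was not tested.

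**Figure D4:**
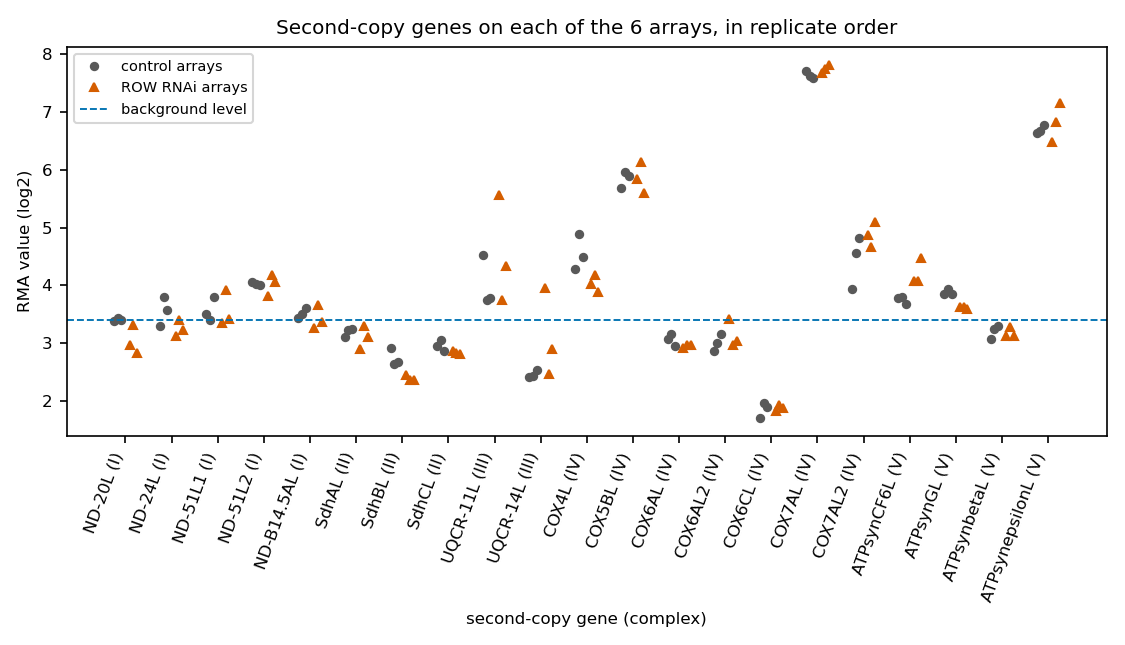
RMA value (log2, y axis) of the 21 second-copy genes on the 3 control arrays (grey circles) and the 3 ROW RNAi arrays (orange triangles), with the background level of 3.39 as a dashed line. COX7AL and ATPsynepsilonL stand clear of the line on all arrays, and 6 genes lie below it on all arrays.

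Genes that serve the same pathway were counted in the same fit. Of 14 measured genes of the tricarboxylic acid cycle 0 passed (median log2 fold change −0.038), as did 0 of 5 of pyruvate entry (0.0057), 0 of 11 of glycolysis (−0.010), 0 of 14 assembly factors (−3.5e-05), 0 of 11 carriers and porin (−0.044) and 0 of 18 of mitochondrial import (−0.036). Of 14 genes of mitochondrial biogenesis and mitochondrial DNA expression, 0 passed, 12 lay below 0 and the median was −0.055. Most of all tested probe sets also lay below 0, with 41.7% above it. Named after their values were seen, PolrMT, the mitochondrial RNA polymerase, read 8.82, 8.92 and 8.82 on control arrays and 8.68, 8.53 and 8.69 in ROW RNAi (−0.22, SE 0.064, limma adjusted p = 0.23). The gene mtDNA-helicase, whose product unwinds mitochondrial DNA, stood at −0.18 (SE 0.059, adjusted p = 0.29). The transcription factor gene ewg, the fly relative of nuclear respiratory factor, stood at 0.31 (SE 0.082, adjusted p = 0.20). In these 3 genes the groups did not overlap. Of the same list, mTerf5, PolG1 and bsf were also fully separated and lower in ROW RNAi (−0.16, −0.10 and −0.081). In the rest of that list the groups overlapped. Of all tested probe sets, 7.0% were fully separated and higher and 14.4% fully separated and lower in ROW RNAi. Of 4 measured nuclear subunit genes that the naming rule left out, blw, sun and ox stood at −0.037, 0.041 and 0.14, and Cyt-c1L, a second copy of Cyt-c1, at −0.60 (SE 0.14, adjusted p = 0.15).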

How the data were processed

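Total RNA (25 ng per sample) was amplified and hybridized to 6 Affymetrix Drosophila Genome 2.0 arrays. The authors deposited log2 values made with RMA (background correction, quantile normalization and a summary per probe set), per the submitters' processing notes, which name no version. Of 18952 probe sets, 183 controls were left out. Array medians lay between 4.88 and 5.04, and the number of arrays limits the precision. Symbols came from the platform annotation, updated by gene ID (13647 probe sets with 1 symbol). The probe sets of 12 members are of a type that matches several transcripts, so other genes can add to their signal. Background was the 95th percentile of 17 tag control probe sets.

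Limma 3.58.1 in R 4.3.3 compared the groups (lmFit, eBayes, two-sided), after it was tested on simulated data, and SE is its moderated error. Tables and figures used Python 3.11.15, pandas 2.3.3 and matplotlib 3.10.9. Members, lists and alternatives were chosen with earlier results of these data known. Named members were subunits picked by role and, in each complex, the highest and lowest log2 fold change and the lowest p. Alternatives covered scaling, dim probe sets, variance models, weights, a replicate block, averaging a gene's probe sets, dropping second copies and leaving out each array. The medians over subunits and over second copies, those of each complex without 1 array and the interval counts over detected probe sets were added after seeing the data.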

Additional observations from a re-analysis of the deposited data

How the results depend on the processing

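The count of 0 members past the threshold was the same under each scaling, filter and variance model tried. This is a weak check where few probe sets passed at all, as with 218 of 18769 in the main fit and 107 with median centring. More passed with the dimmer probe sets dropped (575 of 9384, with 57 members among those tested). With a trended and robust variance 558 of 18769 passed. The count of members ranged from 0 to 1 with 1 array left out. The 1 was ND-20L, lower without ROW RNAi replicate 2 (limma adjusted p = 0.038) and not above background in ROW RNAi, in a fit that called 517 of all 18769 probe sets against 218 with all arrays. The other fits with 1 array left out called 24 to 64. With the replicate block 0 of all 18769 passed, so the 0 members there carry no information. The labels do not say that the replicate numbers mark a shared culture, so the main fit did not pair the samples. For arrays sharing replicate number 1, 2 or 3, deviations from the group means correlated at 0.48, 0.55 and −0.039. Whether the numbers mark pairs was not tested. With median centring the median log2 fold change over all members was −0.020, of complex I −0.024 and of complex V −0.038. With 1 array left out the median of complex II ranged from −0.053 to 0.056, the lowest without ROW RNAi replicate 3. That omission also turned the medians over all members of complex I (−0.011, 10 of 32 above 0) and complex V (−0.0100, 2 of 13), and lowered complex III to 0.040 and complex IV to 0.020. The median of the second copies was 0.11 with the dimmer probe sets dropped, which left 3 of them, and −0.12 without ROW RNAi replicate 2. The cause was not tested.

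Signs of members near 0 turned, none of them past the threshold. With median centring ATPsynB stood at −0.032, ATPsynO at −0.038, COX5A at −0.0055, Cyt-c1 at −0.039 and SdhD at −0.019. With cyclic loess ATPsynO stood at −0.00022 and ND-75 at 0.014, and ND-75 at 0.011 after a further quantile normalization and 0.017 with array weights. Averaging the probe sets per gene gave ATPsyngamma 0.0045 and RFeSP −0.17. With 1 array left out, ranges were −0.0100 to 0.037 for ATPsynB, −0.023 to 0.0035 for ATPsynC, −0.0036 to 0.016 for ATPsynO, −0.0033 to 0.028 for Cyt-c1, −0.036 to 0.024 for ND-51, −0.058 to 0.022 for ND-75, −0.0069 to 0.10 for RFeSP, −0.011 to 0.082 for SdhB and −0.018 to 0.056 for SdhD.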
